A study of Homo sapiens with 4 samples.

Results

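The 8 genes described here encode ligands of the epidermal growth factor (EGF) family: EGF, TGFA, AREG, EREG, HBEGF, BTC, EPGN and NRG1. They were chosen by gene name, and all 8 were found among 60623 genes of the deposited table. RNA was sequenced from T24, an established line of human bladder carcinoma cells, in 2 control libraries and 2 libraries of cells overexpressing CBX7, a chromodomain subunit of Polycomb repressive complex 1. The cells were grown in RPMI medium with foetal calf serum, and the full-length CBX7 was carried by a FLAG-tagging expression vector. The labels do not say whether the control cells carried an empty vector, nor whether the 2 libraries of a group came from separate cultures, so the p-values measure the spread between these libraries, which may be technical. A single cell line and a single construct limit the comparison.

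EGF-family ligands are made as precursors that span the cell membrane, and ADAM metalloproteases shed them as soluble growth factors. EGF, TGF-α (TGFA), amphiregulin (AREG) and epigen (EPGN) bind the receptor EGFR, while HB-EGF (HBEGF), betacellulin (BTC) and epiregulin (EREG) bind both EGFR and ERBB4, and neuregulin 1 (NRG1) binds ERBB3 and ERBB4. Active receptors signal through RAS to ERK, and epithelial cells, the urothelium and its tumours included, can secrete these ligands and respond to them. In the study, CBX7 was followed as a candidate suppressor of bladder cancer growth and of ERK signalling. What follows asks which ligands T24 cells transcribed and whether their transcripts differed with CBX7.

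The promoters of 4 ligands are shown because they span the range from the most abundant ligand (HBEGF) to one close to the detection limit (EPGN). They include TGFA, which had the largest absolute fitted log2 fold change among the 6 ligands with enough counts. Each sequence holds the 250 bases before the transcription start listed by RefSeq, 5′ to 3′ on the strand of the gene, and capitals mark CpG dinucleotides, the sites of DNA methylation. The windows lie in GRCh38.p14 at chr5:140346604-140346853, minus strand (HBEGF), chr2:70553827-70554076, minus strand (TGFA), chr4:74444886-74445135, plus strand (AREG) and chr4:74308220-74308469, plus strand (EPGN). TGFA has a further listed start, and its first entry is shown. That window lies inside the TGFA gene as bounded by GENCODE, from 70447280 to 70554193.
HBEGF: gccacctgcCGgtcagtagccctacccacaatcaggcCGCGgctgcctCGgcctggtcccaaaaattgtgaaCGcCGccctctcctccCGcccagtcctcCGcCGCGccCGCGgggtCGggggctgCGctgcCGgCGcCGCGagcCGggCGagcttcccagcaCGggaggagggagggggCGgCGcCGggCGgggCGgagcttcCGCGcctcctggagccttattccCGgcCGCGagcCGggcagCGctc
TGFA: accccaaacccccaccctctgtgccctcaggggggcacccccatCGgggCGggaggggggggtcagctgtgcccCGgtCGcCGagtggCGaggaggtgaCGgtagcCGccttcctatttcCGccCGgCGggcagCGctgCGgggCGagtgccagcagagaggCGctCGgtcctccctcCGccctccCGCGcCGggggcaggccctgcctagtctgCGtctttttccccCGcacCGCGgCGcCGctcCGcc
AREG: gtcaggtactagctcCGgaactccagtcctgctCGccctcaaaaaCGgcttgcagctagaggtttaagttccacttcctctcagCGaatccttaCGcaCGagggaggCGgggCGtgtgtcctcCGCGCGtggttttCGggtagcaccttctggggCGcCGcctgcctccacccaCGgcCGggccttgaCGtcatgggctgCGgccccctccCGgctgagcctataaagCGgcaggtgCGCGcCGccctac
EPGN: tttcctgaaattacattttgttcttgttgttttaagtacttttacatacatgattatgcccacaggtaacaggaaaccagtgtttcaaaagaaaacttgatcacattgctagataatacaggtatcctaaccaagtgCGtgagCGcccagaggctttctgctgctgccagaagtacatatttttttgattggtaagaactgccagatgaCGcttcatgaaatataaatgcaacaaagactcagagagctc

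The HBEGF window held 33 CpG dinucleotides, more than 91.9% of 35114 RefSeq promoter windows of the same length, and that of TGFA held 27, more than 82.3% of them. AREG had 23, EREG 11, BTC 8, and EGF and EPGN had 3 each, against a median of 11 over all promoters. The second TGFA entry held 20. EGF and EPGN, both with almost no transcripts in T24 cells, had more CpG dinucleotides than 22.9% of all promoters, and 3 is the lower quartile. The scarce BTC also lay below the median. The abundant ligands with an entry spanned from the median (EREG) to near the top of the distribution (HBEGF). A relation between CpG content and transcript level was not tested. Promoter entries of 7 of the 8 ligands were used, and none for NRG1. TATAAA, the core of the TATA box, was searched on both strands and was present in AREG, EREG and EPGN, as in 10.7% of all promoters. TGACGTCA, the cyclic AMP response element, which reads the same on both strands, was present in AREG alone among the 7 ligands, and in 1.6% of all promoters. TGAGTCA, a site of AP-1 factors searched on both strands, was present in EGF alone, and in 4.2% of all promoters. GGGCGG, a site of SP1-type factors, was searched on both strands, occurred 5 times in HBEGF, 3 times in the first TGFA entry and once in AREG, and was present in 42.6% of all promoters. These letters describe the windows, and the deposited table holds no measure of methylation or binding.

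**Figure D1:**
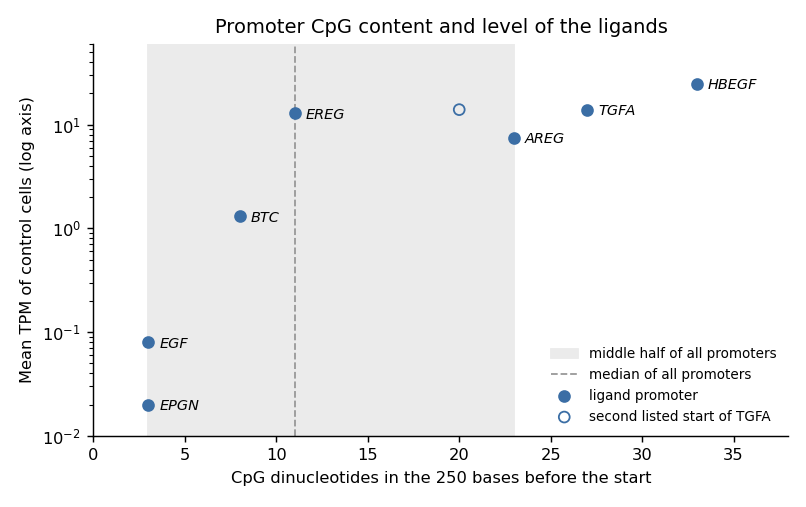
Mean TPM of the 2 control libraries (log axis) against the number of CpG dinucleotides in the 250 bases before the RefSeq start, for 7 ligands. The grey band is the interquartile range of all 35114 promoters and the dashed line their median of 11; EGF and EPGN sit at 3 CpG and under 0.1 TPM, and HBEGF at 33 CpG and 24.7 TPM.

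The summed counts were between 20800910 and 25135488 per library, and 3 counts, the upper limit for a gene with no count, correspond to at most 0.144 CPM (counts scaled to library size), a limit that covers counting error only. CBX7 itself stood at 10.3 ± 0.898 CPM in the control group and at 1685 ± 127 CPM in the CBX7 group (SD, n = 2 per group), a log2 fold change of 7.35 (standard error 0.18, adjusted p = 0.000584, edgeR), so that all 4 libraries matched their labels, and its counts do not separate the introduced transcript from the cell's own. Of 22 urothelial and bladder carcinoma markers, 10 had at most 3 counts in every library, among them the uroplakins UPK1A, UPK1B, UPK2 and UPK3A, the basal keratins KRT5 and KRT14, and CDH1. VIM, KRT7 and KRT18 were the most abundant, and the summed TPM of the list lay between 6273 and 6636. Of its 11 tested genes, KRT19 and GATA3 were higher with CBX7 at an unadjusted p under 0.05, against 3.42% of all genes tested, and none passed after adjustment (edgeR). Of 7 leukocyte and endothelial markers, 4 had at most 3 counts in every library (PTPRC, CD3E, ITGAM and VWF), PECAM1 had between 1 and 4 counts and CDH5 between 3 and 13. CD14, with between 14 and 29 counts (0.79 to 1.64 TPM), made up most of the summed level of the list, which lay between 1.14 and 1.96 TPM. CBX7 replicate 1 stood apart from its partner in a trend with transcript length. Across 11077 genes, the log2 ratio of CBX7 replicate 1 to replicate 2 had a Spearman correlation of -0.80 with the length implied by these libraries' own counts and TPM. Between the control libraries it was -0.55 (genes are not independent replicates). With the deposited gene length the correlations were -0.70 and -0.49.

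Relative transcript abundance is given in TPM, a measure relative to all transcripts of a library that takes transcript length into account and so allows different genes to be compared. HBEGF was the most abundant ligand, at 24.9 and 24.6 TPM in control replicates 1 and 2 and at 19.5 and 21.6 TPM in CBX7 replicates 1 and 2. It was above every other ligand in each library, and its lowest value lay above the 15.1 TPM that was the highest value of any other ligand. In control cells its mean level exceeded that of 75.2% of 19916 protein-coding genes.

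TGFA, NRG1 and EREG followed, and their ranges overlapped. TGFA was at 13.5 and 14.4 TPM in the control libraries and at 5.60 and 10.6 TPM in the CBX7 libraries. NRG1 was at 11.2 and 14.8 TPM in the control libraries and at 8.32 and 12.5 TPM in the CBX7 libraries. EREG was at 11.7 and 14.0 TPM in the control libraries and at 7.99 and 15.1 TPM in the CBX7 libraries. These 3 ligands could not be ranked beyond the spread between libraries, and CBX7 replicate 1 held the lowest value of each.

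AREG came next, at 7.12 and 7.77 TPM in control cells and at 7.55 and 6.32 TPM in CBX7-overexpressing cells, and was below EREG and above BTC in all 4 libraries. Its range overlapped that of TGFA, which lay below AREG in CBX7 replicate 1. BTC was scarce, at 1.5 and 1.12 TPM in control cells and at 0.61 and 0.65 TPM in CBX7-overexpressing cells. Together the 8 ligands summed to 69.9 and 76.7 TPM in the control libraries and to 49.8 and 67.0 TPM in CBX7 replicates 1 and 2. HBEGF made up between 32.0% and 39.1% of that sum, and HBEGF, TGFA, NRG1 and EREG together between 83.1% and 89.1%.

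**Figure D2:**
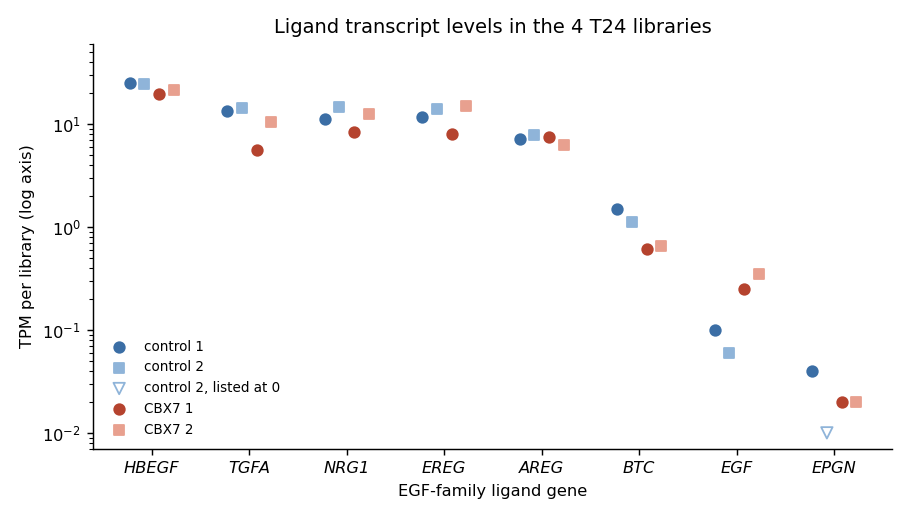
TPM of the 8 ligands (log axis) in each library, as circles for replicate 1 and squares for replicate 2, blue for control and red for CBX7 cells. HBEGF lies between 19.5 and 24.9 TPM, EGF at or under 0.35 TPM, and EPGN at or under 0.04 TPM, with an open triangle where it is listed at 0.

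EGF itself, the ligand that gave the family its name, was counted 6 and 3 times in control cells and 11 and 5 times in CBX7-overexpressing cells. EPGN was counted 2 and 0 times in control cells and 1 time in each CBX7 library, at or under the limit of 3 counts in every library, so that no fold is given. Both genes had too few counts to pass the filter. With no filter, the log2 fold change of EGF was 0.76 (standard error 0.82, adjusted p = 0.906, edgeR). The TPM of EGF did not follow its counts: control replicate 1, with 6 counts, was listed at 0.10 TPM, and CBX7 replicate 2, with 5 counts, at 0.35 TPM. Its groups did not overlap in TPM, while they overlapped in normalized counts, between 0.143 and 0.251 CPM in control and between 0.224 and 0.455 CPM in CBX7-overexpressing cells. A difference in EGF was therefore not detected with these few counts.

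EPGN, EREG, AREG and BTC lie next to each other on chromosome 4, within 486.2 kb of GRCh38, and no other protein-coding gene of the deposited table lies between them. EPGN (ENSG00000182585, from 74308473 to 74315307), EREG (ENSG00000124882, from 74365143 to 74388751) and AREG (ENSG00000109321, from 74445134 to 74455009) are on the plus strand. BTC (ENSG00000174808, from 74744759 to 74794686) is on the minus strand. Neighbours in the genome differed in level: EREG, which lies 49.8 kb from EPGN, had between 734 and 1071 counts, while EPGN had at most 2. On the EPGN side the next gene, MTHFD2L, a mitochondrial folate enzyme, had between 345.1 and 380.9 counts. Beyond BTC, PARM1 had at most 5 counts and RCHY1, a ubiquitin ligase, between 446 and 535. None of the 5 tested genes of this stretch passed an unadjusted p of 0.05 in the comparison below. The remaining ligands lie elsewhere, EGF (ENSG00000138798) on chromosome 4 from 109912884 to 110012266, TGFA (ENSG00000163235) on chromosome 2 (70447280 to 70554193, minus strand), HBEGF (ENSG00000113070) on chromosome 5 (140332843 to 140346631, minus strand), and NRG1 (ENSG00000157168) on chromosome 8.

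To ask whether the ligands responded to CBX7, both groups entered edgeR's quasi-likelihood test over 14862 genes with enough counts, 6 of the ligands among them, with Benjamini-Hochberg adjustment over all genes. Of all genes tested, 3 (0.0202%) had an adjusted p under 0.05, and no ligand was among them. At an unadjusted p under 0.05, 705 genes (4.74%) were found, 196 (1.32%) lower with CBX7 and 509 (3.42%) higher. TGFA was the 1 ligand among them, and it was lower. The median log2 fold change of the 6 tested ligands was -0.18, against 0.00170 over all genes, and 5 of the 6 were below 0, against 49.7% of all genes. An exact two-sided permutation of 2 against 2 libraries has a smallest possible p of 0.333, so these p-values rest on a spread estimated across genes. In such bulk libraries, fewer cells transcribing a gene and less RNA per cell cannot be told apart.

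TGFA, a high-affinity EGFR ligand, had 702 and 636 counts in the control libraries and 386 and 463 counts in the CBX7 libraries. After TMM normalization these were 29.42 and 30.29 CPM against 15.98 and 20.72 CPM, so the groups did not overlap and both CBX7 libraries were low. The mean was 29.9 ± 0.617 CPM in control cells against 18.4 ± 3.35 CPM with CBX7 (SD, n = 2 per group). The log2 fold change was -0.70 with a standard error of 0.17, which is 61.5% of the control level, with an unadjusted p of 0.00727 and an adjusted p of 0.597 (edgeR). It did not pass the adjusted threshold, and 1.92% of all genes tested had a log2 fold change at or below it (5.38% by absolute size).

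Because the groups did not overlap, TGFA had to be lower in both pairs of same-numbered libraries. The log2 ratio was -0.88 for replicate 1 and -0.55 for replicate 2. Without CBX7 replicate 1 the log2 fold change was -0.52 (adjusted p = 0.00283, edgeR), and without CBX7 replicate 2 it was -0.90 (adjusted p = 5.36e-10), both past the threshold. Those fits assume that the lone CBX7 library varied like the control libraries, and in them 397 and 5491 genes in all passed, while without either control library the adjusted p was close to 1. When genes with low counts were kept, the adjusted p was 0.0356 (edgeR), in a fit in which 1.01% of all genes passed. On the same genes, the newer quasi-likelihood method of edgeR gave an adjusted p of 0.785. When the trend of each library with deposited gene length and GC content was removed, the log2 fold change was -0.78 (adjusted p = 0.468), and with the length implied by counts and TPM it was -0.64 (adjusted p = 0.0806). TGFA also passed in the 3 fits with replicate number as a term, where 2.43% of all genes did so, 1.02% with the length and GC correction added, and 4.6% with the correction on implied length. Over the 12 alternatives to the 4 libraries its adjusted p ranged from 6.17e-05 to 0.785.

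**Figure D3:**
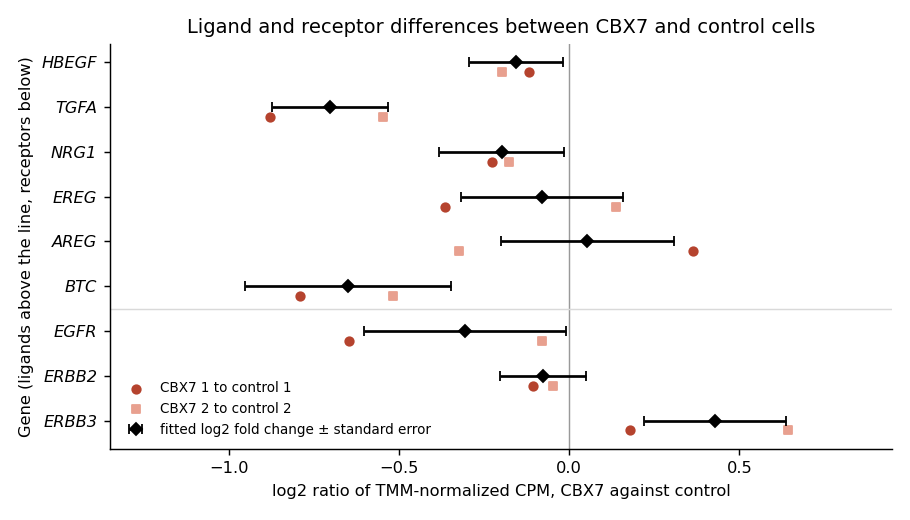
Fitted log2 fold change between CBX7 and control cells with its standard error (diamonds) for the 6 tested ligands and 3 receptors, with the log2 ratio of each pair of same-numbered libraries below it. TGFA and BTC lie furthest to the left, at -0.70 and -0.65, and the pairs of EREG and of AREG fall on opposite sides of 0.

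HBEGF, a heparin-binding ligand, had 988 and 814 counts in control cells and 921 and 756 counts in CBX7-overexpressing cells. Its normalized level was 41.4 and 38.8 CPM in control and 38.1 and 33.8 CPM in CBX7-overexpressing cells, so the groups did not overlap, though the highest CBX7 library and the lowest control library lay close together. The log2 fold change of HBEGF was -0.16 (standard error 0.14, adjusted p = 0.951, edgeR). BTC had 41 and 35 counts in control cells and 24 and 26 counts in CBX7-overexpressing cells, or 1.72 and 1.67 CPM against 0.994 and 1.16 CPM, and its groups did not overlap. Its log2 fold change was -0.65 with a standard error of 0.30, and neither its unadjusted p of 0.0787 nor its adjusted p of 0.951 passed 0.05. With HBEGF, TGFA and BTC, 3 of the 6 tested ligands had both CBX7 libraries below both control libraries, against 14.8% of all genes tested, and no ligand had both above, against 15.4%. Over both directions, 30.2% of all genes were without overlap.

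NRG1, a ligand of ERBB3 and ERBB4, had 677 and 725 counts in control cells and 585.0 and 683 counts in CBX7-overexpressing cells, and its normalized groups overlapped. Its log2 fold change was -0.20 with a standard error of 0.18 (adjusted p = 0.951, edgeR). EREG had 935.1 and 915 counts in control cells and 734 and 1071 counts in CBX7-overexpressing cells, with a log2 fold change of -0.08 and a standard error of 0.24. AREG had 129 and 120 counts in control cells and 168 and 102 counts in CBX7-overexpressing cells, with a log2 fold change of 0.05 and a standard error of 0.25. For EREG and AREG the CBX7 libraries lay on either side of the control libraries, and in opposite order. After the length and GC correction AREG was at -0.07 and EREG at 0.01, so the sign of both depended on it. Without CBX7 replicate 2, EREG was at -0.45 and NRG1 at -0.38, while without CBX7 replicate 1 EREG was at 0.22 and NRG1 at -0.03.

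Across the ligands, the spread between the CBX7 libraries ran with transcript length in part, and its cause was not tested. The length implied by the deposited counts and TPM averaged 1065 bases for AREG, 2297 for HBEGF, 3073 for TGFA, 3482 for NRG1 and 4573 for EREG. The log2 ratio of CBX7 replicate 1 to replicate 2 was 0.61 for AREG, 0.17 for HBEGF, -0.37 for TGFA, -0.34 for NRG1 and -0.66 for EREG. The shortest transcript thus had the highest ratio and the longest the lowest, while TGFA was slightly below the longer NRG1. BTC, with between 24 and 41 counts, had a ratio of -0.23, below that of the longer HBEGF. The implied length of BTC, 1869 bases, rests on the 2 control libraries alone. Between the control libraries the same ratio stayed within -0.28 and 0.09 for all 6 ligands. The deposited gene length of TGFA, 985 bases, equals a single transcript (TGFA-205 in GENCODE), whereas counts and TPM implied between 2883 and 3355 bases, and the longest transcript (TGFA-201) has 4310 bases. If counts are divided by the deposited length instead, TGFA leads the ligands at a mean of 24.5 CPM per kb over the 4 libraries, with HBEGF at 16.1.

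**Figure D4:**
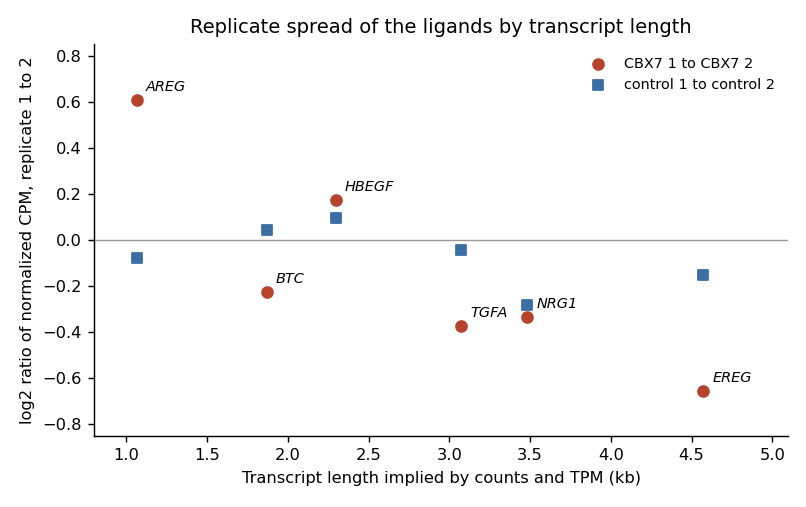
Log2 ratio of normalized CPM between replicates 1 and 2 of each group against the transcript length implied by counts and TPM, for the 6 tested ligands. Red circles (CBX7) run from 0.61 for AREG at 1065 bases to -0.66 for EREG at 4573 bases, and blue squares (control) stay between -0.28 and 0.09.

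**Figure D5:**
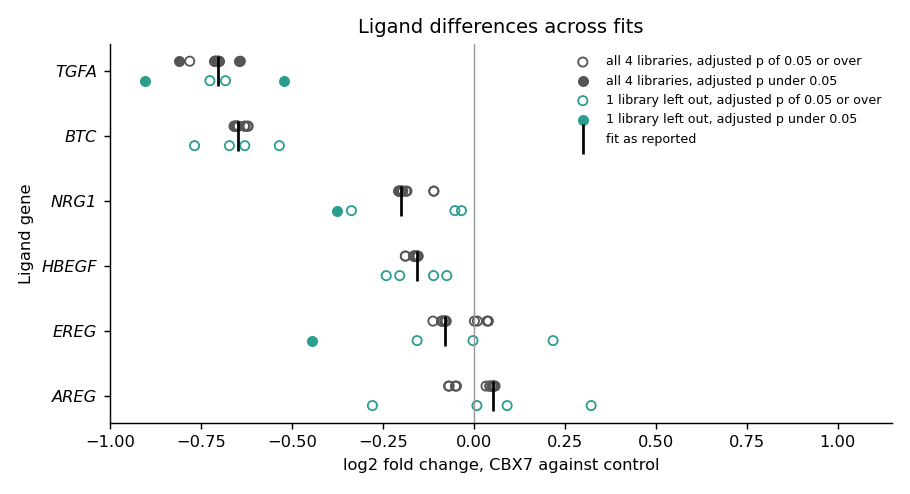
Log2 fold change of the 6 tested ligands in each alternative fit, grey with all 4 libraries and green with 1 library left out, filled where the adjusted p was under 0.05; black bars mark the fit as reported. TGFA stays between -0.90 and -0.52 in every fit shown, and AREG and EREG cross 0.

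The fits drawn for each ligand differ in how far they moved. TGFA remained below 0 in all 12 alternative fits to the 4 libraries and in the 4 fits that left out a library, as did HBEGF, BTC and NRG1. All these fits reuse the same 4 libraries, so they do not replicate the direction. For TGFA, HBEGF and BTC, whose groups did not overlap, the sign was largely fixed beforehand. By the distance between centred log2 CPM over the 4 libraries, the genes closest to TGFA among 9277 candidates were MTSS1 at a distance of 0.0747 on the log2 scale, ARRDC3 at 0.123 and PDE4DIP at 0.136. MTSS1, which encodes an actin-binding scaffold, had 685.9 and 630.0 counts in control cells and 356 and 445.4 counts in CBX7-overexpressing cells. With 4 libraries such a likeness is a description of these libraries only.

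Of the receptors, EGFR was abundant, at 57.8 and 74.6 TPM in control cells and at 31.7 and 71.7 TPM in CBX7 replicates 1 and 2. ERBB2, which pairs with the other receptors, was between 32.2 and 40.6 TPM. ERBB3, a receptor of NRG1, was between 4.05 and 5.15 TPM. ERBB4, which binds NRG1, HBEGF, BTC and EREG, had at most 3 counts in every library. The log2 fold changes were -0.31 for EGFR (standard error 0.30), -0.08 for ERBB2 (standard error 0.13) and 0.43 for ERBB3 (standard error 0.21), and no receptor passed an unadjusted p of 0.05. EGFR was low in CBX7 replicate 1 alone: without that library its log2 fold change was 0.07, and without CBX7 replicate 2 it was -0.81. With the length and GC correction on all libraries it was -0.16, and with the implied length -0.13. ERBB3 was at 0.65 without CBX7 replicate 1 and at 0.18 without CBX7 replicate 2. Of the other neuregulins, NRG2 had between 231 and 290 counts with a log2 fold change of -0.19, NRG4 between 4.39 and 28.3 counts, and NRG3 was listed at 0 in every library.

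All 11 listed genes of ligand shedding, proteases and their regulators, had enough counts to be tested, 1 was higher and 1 lower at an unadjusted p under 0.05 (3.42% and 1.32% of all genes tested), and none passed the adjusted threshold, with a median log2 fold change of -0.02. Of the 6 ADAM proteases, ADAM15 was between 96.2 and 106.8 TPM, ADAM9 between 60.8 and 107.1 TPM, and the sheddases ADAM10 and ADAM17 between 22.2 and 69.0 TPM and between 8.71 and 18.7 TPM. All but ADAM15 were lowest in CBX7 replicate 1. In normalized counts ADAM15 was higher, and ADAM12 and ADAM19 lower, in both CBX7 libraries than in both control libraries. FRMD8, another gene of this list, was also higher in both. Of all genes tested, 15.4% were higher and 14.8% lower without overlap. TIMP3, an inhibitor of ADAM17, had 129 and 111 counts in control cells and 283 and 302 counts in CBX7-overexpressing cells, so the groups did not overlap. Its log2 fold change was 1.24 with a standard error of 0.17, an unadjusted p of 0.000452 and an adjusted p of 0.260 (edgeR). ADAM19, a metalloprotease known to process neuregulin precursors, had 490 and 447 counts against 316 and 385, and its log2 fold change was -0.46 (standard error 0.18, unadjusted p = 0.0438, adjusted p = 0.951, edgeR). Without CBX7 replicate 1 or without CBX7 replicate 2, TIMP3 passed the adjusted threshold, but not without control replicate 1 (adjusted p = 0.196) or control replicate 2 (adjusted p = 0.283, edgeR). ADAM19 passed without CBX7 replicate 2, where 5491 of 15452 genes did, and in none of the other fits that left out a library. TIMP3 also passed in 6 of the 12 alternative fits to all 4 libraries, over which its log2 fold change lay between 1.23 and 1.36 and its adjusted p between 2.14e-07 and 0.450.

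Downstream of the receptors, none of 9 receptor adaptors, 14 tested of 15 genes that attenuate the receptors, or 16 ERK output genes passed an unadjusted p of 0.05, against 4.74% of all genes tested. Their median log2 fold changes were -0.15, -0.12 and -0.01. By mean TPM over the 4 libraries the most abundant adaptors were SHC1, between 144.9 and 227.0 TPM, and GRB2, which links receptors to RAS activation, between 67.5 and 94.1 TPM, though PTPN11 exceeded GRB2 in both replicate 2 libraries. Among the attenuators HGS, which sorts receptors to lysosomes, was between 114.1 and 129.7 TPM, and ERRFI1, a direct inhibitor of EGFR, between 51.0 and 80.4 TPM. Among the ERK output genes FOSL1, an AP-1 subunit, was between 396.4 and 461.7 TPM, with a log2 fold change of -0.02 and a standard error of 0.14, and CCND1, a cyclin that drives entry into S phase, was between 173.2 and 241.8 TPM. DUSP6, a phosphatase that acts on ERK and is induced by it, was at 0.11 with a standard error of 0.13.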

How the data were processed

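Transcripts were measured in 2 control and 2 CBX7 libraries of T24 cells, grouped by their titles. The deposited table holds, for each gene and library, an estimated count (exactly whole in 66.9% to 68.6% of values above 0) and a TPM value, both made by the authors. The deposited columns of the authors' own comparison (a fold ratio, a log2 fold change, p-values) were not used. The submitters' processing notes list cutadapt 1.9.1, HISAT2 2.0.1, HTSeq 0.6.1, DESeq2 and hg19, without their roles, and the tool behind counts that are not whole is not given in the sources used here. Coordinates and transcripts come from GENCODE release 29 on GRCh38, matched by identifier (96.5% of genes), and promoters from RefSeq on GRCh38.p14.

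Rounded counts that passed filterByExpr were scaled by TMM, and glmQLFit and glmQLFTest of edgeR 4.0.16 (R 4.3.3) were run with group as the only term. Each standard error is the absolute log2 fold change over the square root of F. The length implied by counts and TPM was scaled on 602 genes with 1 GENCODE transcript. The scripts were tested on simulated data. Alternatives were other scalings, filters and tests (DESeq2 1.42.0, the newer quasi-likelihood method), a replicate block, a correction for length and GC content, and each library left out. After the data had been seen were added the correction with implied length and the combination of no filter with the newer method.

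The ligands and gene lists were chosen with earlier results of these data known. Named were all ligands, ERBB receptors, other neuregulins and chromosome 4 neighbours; of the other lists, genes with an unadjusted p under 0.05, otherwise the most abundant genes, and the most abundant markers and those at the count limit; and the 3 genes closest to TGFA. FRMD8, DUSP6, PTPN11, PECAM1 and the ADAM proteases other than ADAM19 were added after their values were seen. A further leukocyte marker is not reported here.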

Additional observations from a re-analysis of the deposited data

How the results depend on the processing

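In the fit reported, and in the fits not listed here, 3 genes passed an adjusted p of 0.05. The count was 67 by the Wald test of DESeq2, 265 without a filter, 5 with the length and GC correction, 73 with the correction on implied length, 1 with no filter and the newer method, and from 45 to 5491 when 1 library was left out, the highest without CBX7 replicate 2. The number of ligands past that threshold was 0, and 1 (TGFA) with no filter. With 1 library left out it ranged from 0 to 3, and the ligands with an unadjusted p under 0.05 from 1 to 3, while 382 to 6647 genes in all passed the latter, the most without CBX7 replicate 2 (6647 of 15452 tested). Both groups carry replicate numbers 1 and 2, but nothing says that they mark a common batch, and 2 pairs are too few to establish one; same-numbered libraries deviated together, with a correlation of 0.31 across all genes tested and 0.61 across the 11077 genes that averaged 100 counts or more. With the replicate block, 361 genes and 1 ligand (TGFA) passed the adjusted threshold, with the block and the length and GC correction 152 and 1 (TGFA), and with the block and the correction on implied length 683 and 1 (TGFA). AREG changed sign to -0.068 with the length and GC correction, -0.070 with the block added, and -0.048 and -0.051 with implied length without and with the block. EREG did so to 0.0095, 0.0015, 0.040 and 0.036 in the same fits. With 1 library left out, AREG ranged from -0.279 to 0.322, EREG from -0.446 to 0.218, EGFR from -0.806 to 0.0673 and MTHFD2L from -0.234 to 0.0275. The cause was not tested. The order of the 8 ligands by mean TPM over the 4 libraries (HBEGF, EREG, NRG1, TGFA, AREG, BTC, EGF, EPGN) kept every place with either pseudocount on the log scale, and 5 of 8 places when CPM was divided by the deposited length. With 1 library left out it kept from 6 to 8.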
